A study of Homo sapiens with 6 samples.

Results

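MYC, MAX and the factors that share MAX or its relative MLX as a partner were examined in U87-MG, an established human glioblastoma line. The genes were the entries of the deposited table with the symbols MYC, MYCN, MYCL, MAX, MXD1, MXD3, MXD4, MNT, MGA and MLX, which are 10 of 61806 genes. They were taken by symbol, and no threshold on a measured value was applied. RNA sequencing covered 3 negative control (NC) libraries with the genotype label wildtype and 3 libraries of cells labelled GRIK1 siRNA, with the genotype label GRIK1 knockdown. GRIK1 encodes a kainate-type glutamate receptor subunit, and the comparison addressed which genes lie downstream of it in glioblastoma. All 6 libraries came from the same cell line. Whether libraries 1, 2 and 3 are separate cultures or, with siRNA, separate siRNA sequences is not stated in the labels, and the series' description names an shRNA. The authors' paper describes 3 numbered siRNA sequences and states that siRNA 1, the most efficient, served in later experiments. It does not name the sequence used for these libraries. The p-values therefore measure only the spread between these libraries, which may be technical.

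MYC, MYCN and MYCL are transcription factors of the basic helix-loop-helix leucine zipper family that bind DNA only as a dimer with MAX and mainly raise transcription of growth genes. The MXD proteins and MNT compete for MAX and recruit the SIN3 co-repressor to the same DNA element, the E-box CACGTG. MGA is a very large protein that also pairs with MAX and acts within a Polycomb repressor complex named PRC1.6. MLX is a MAX-like partner of MLXIP (MondoA) and MLXIPL (ChREBP), which respond to glucose. MYC is an oncogene that supports proliferation and stem-like features in glioblastoma.

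The E-box is the sequence through which these proteins act, so it was searched in the promoters of the network genes themselves. RefSeq promoter windows of GRCh38.p14, from 250 bases before to 50 bases after each start site, were at hand for 9 of the 10 genes, all but MYC. CACGTG, which reads the same on both strands, was present in the windows of 3 of these 9 genes (33.3%), against 8.77% of all genes with a window and 7.26% of all 35116 windows. Both backgrounds include genes with few or no counts in these libraries. The 3 genes were MXD4, MNT and MLX. Their E-boxes are shown in capitals within 30 bases of the gene's own strand, 5′ to 3′, and start 238, 193 and 50 bases before the start site, in that order. MXD4 (chr4:2262330-2262359, minus strand), MNT (chr17:2401236-2401265, minus strand) and MLX (chr17:42567038-42567067, plus strand):
MXD4: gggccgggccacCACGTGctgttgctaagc
MNT: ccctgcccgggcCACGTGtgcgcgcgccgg
MLX: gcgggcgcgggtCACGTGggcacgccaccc
The windows of MYCN, MYCL, MAX, MXD1, MXD3 and MGA held no CACGTG. Such a match describes the letters of a window and not binding.

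NC libraries held from 11099909 to 14006968 counts, and the libraries labelled GRIK1 siRNA from 12384768 to 13210932. GRIK1 itself had 18, 9 and 8 counts in NC against 15, 20 and 20 counts with the siRNA label. The targeted transcript was thus no scarcer under the siRNA label, with a log2 fold change of 0.44 and a standard error of 0.43 in edgeR without a filter on low values (adjusted p = 0.620). Leaving out 1 library at a time gave GRIK1 values from 0.19 without NC library 3 to 0.91 without NC library 1. NC library 3 stood apart from the other libraries, with 9.37% of its counts on ribosomal protein genes against 4.79% to 5.50% in the other 5. Against the mean of NC libraries 1 and 2, the 3882 tested genes of highest GC content had a median log2 difference of -0.40 in NC library 3, and the 3883 of lowest GC content had 0.27. Values without that library are given beside those of all 6 for the members, for the called genes of the lists and the counts over them, and for most other named genes. Of the 7 glioma line markers VIM, CD44 and CHI3L1 had a mean of at least 1 FPKM. NES, SOX2, GFAP and S100B were below it, with at most 0.693, 0.121, 0.280 and 0.0419 FPKM in any library. These markers alone thus do not show a glial identity of the cells. The 11 markers of other cell types summed to between 6.65 and 7.79 FPKM in NC and between 5.83 and 6.85 FPKM in the other group, and CD3E and MOG had 0 counts. Of these markers 3 averaged at least 1 FPKM, the epithelial genes KRT8 (2.49 to 3.97 FPKM over the 6 libraries) and EPCAM (0.911 to 2.09 FPKM) and the neuronal gene SNAP25 (1.45 to 2.15 FPKM), levels like those of CHI3L1 (1.70 to 3.53 FPKM).

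Levels are given as FPKM, which is reads per kilobase of exonic gene size and scaled to the counted reads of the library, so that genes of different length can be set side by side. MAX, the shared partner, was the highest of the 10 genes in both groups, at 14.2 ± 0.815 FPKM in NC and 14.9 ± 0.629 FPKM in the libraries labelled GRIK1 siRNA (SD, n = 3 each). In NC it was followed by MYC at 11.5 ± 1.62 FPKM and MLX at 10.8 ± 0.985 FPKM, whose ranges overlapped. In the libraries labelled GRIK1 siRNA the order of these genes was the other way round, with MLX at 10.3 ± 0.546 FPKM and MYC at 8.63 ± 0.335 FPKM, and their ranges were apart. Then came MNT, MXD4, MXD3, MGA and MXD1 in this order in both groups. Each of these neighbours overlapped in NC, whereas in the other group only MNT and MXD4 did. MXD1 was the lowest of them, at 1.78 ± 0.483 and 2.81 ± 0.257 FPKM.

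Among the 3 MYC paralogs, MYC carried nearly all of the signal. MYCN (chromosome 2 from 15940550 to 15947007, plus strand), the paralog of neural progenitors and neuroblastoma, had 0 counts in each of the 6 libraries. With the limit of 3 counts that a count of 0 allows, its level could have reached between 0.0777 and 0.0981 FPKM, depending on the library. MYCL (chromosome 1 from 39895426 to 39902256, minus strand) had 13, 16 and 24 counts in NC against 16, 17 and 15 counts with the siRNA label, and its groups overlapped. Both were below the filter of a mean of at least 0.5 FPKM, which the other 8 genes passed. The fit without this filter gave MYCL a log2 fold change of -0.33, with a 95% interval from -1.14 to 0.48 (adjusted p = 0.631 from edgeR). It was -0.11 without NC library 3 and -0.50 without NC library 1, so its size rested on single libraries.

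**Figure D1:**
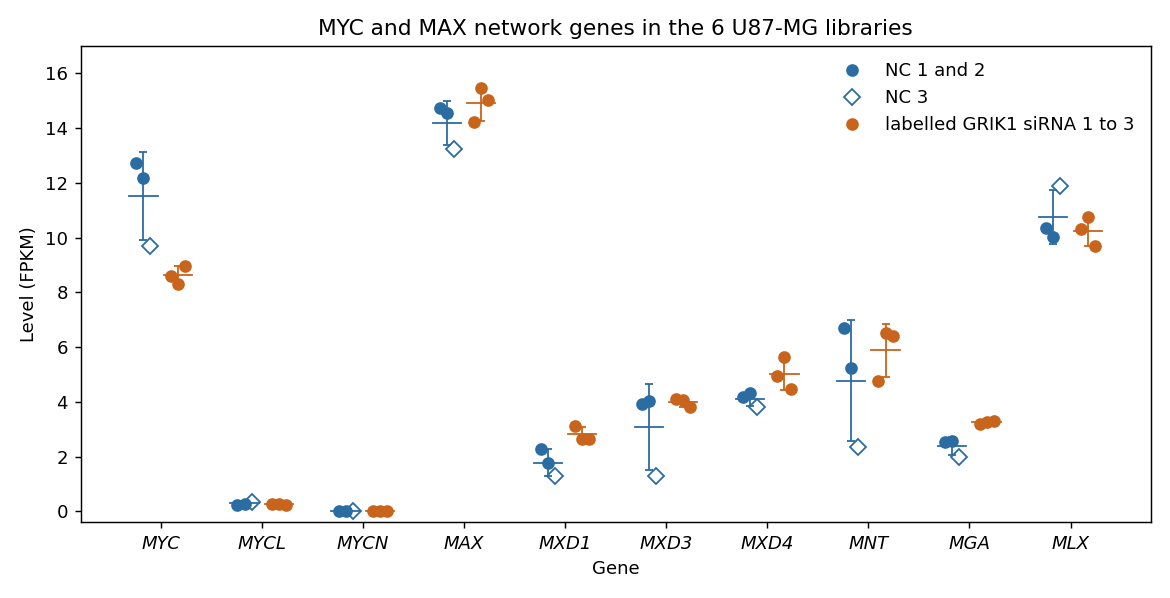
Level of each network gene in FPKM (vertical axis) for the 3 NC libraries (blue, NC library 3 as an open diamond) and the 3 libraries labelled GRIK1 siRNA (orange), with the group mean as a line and the SD as a bar. MYC is lower in each library labelled GRIK1 siRNA, between 8.30 and 8.97 FPKM, than in each NC library, and NC library 3 is the lowest NC point for MAX, MXD1, MXD3, MXD4, MNT, MGA and MYC.

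The 8 genes above the filter were tested between the groups with the quasi-likelihood test of edgeR over all 15870 genes that passed it, with Benjamini-Hochberg adjustment, and a gene was called at an adjusted p under 0.05. With all 6 libraries, 0 of the 8 were called, where the background was 3.09% of all tested genes. An unadjusted p under 0.05 was found for 3 of the 8, MYC, MXD1 and MGA, while 25.1% of all tested genes had one. DESeq2 called 2 of the 8, MYC lower (background 4.84%) and MGA higher (background 5.20%), and limma's voom with quality weights called 3, MYC, MXD1 and MGA, with a background of 39.9%. The edgeR fit without NC library 3 called MYC lower (background 18.3%) and MXD1 and MGA higher (background 16.9%). These 3 of 8 are close to the 35.2% of all genes called in that fit, a share near the background. In the fit of all 6 libraries the median of the log2 fold changes was 0.23 over the 8 genes and -0.02 over all tested genes. Once NC library 3 was left out, these medians were -0.0089 and 0.01.

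MYC lies on the plus strand of chromosome 8 (ENSG00000136997). Its level was 12.7, 12.2 and 9.69 FPKM in NC libraries 1, 2 and 3 and 8.61, 8.30 and 8.97 FPKM in libraries 1, 2 and 3 labelled GRIK1 siRNA. Every library of the latter group was below every NC library, and NC library 3 was the closest to them. On normalized counts such separation, in either direction, held for 38.5% of all tested genes, a share that also applies to MXD1 and MGA below. The log2 fold change was -0.50 (standard error 0.12, 95% interval from -0.77 to -0.23), which is 0.708 of the NC level. Its adjusted p was 0.0641 in edgeR, short of the threshold. Without NC library 3, MYC fell by 0.55 on the log2 scale (standard error 0.07, adjusted p = 1.56e-05 from edgeR). The adjusted p ranged from 1.12e-05 to 0.294 over the 12 alternatives, and the log2 fold change only from -0.55 to -0.45. A change of at least the size of that of MYC was found in 32.3% of all tested genes with all libraries and in 20.6% without NC library 3. In bulk RNA, fewer cells with a transcript and less of it per cell cannot be told apart.

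MAX (ENSG00000125952, chromosome 14 from 65006174 to 65102695, minus strand) differed little between the groups. It stood at 14.7, 14.6 and 13.2 FPKM in NC and at 14.2, 15.5 and 15.03 FPKM in the others, and the groups overlapped. The log2 fold change was -0.01, with a 95% interval from -0.26 to 0.23 that narrowed to between -0.12 and 0.12 without NC library 3. Its sign turned under 2 alternatives, where it was 0.012 and 0.023. FNTB overlaps MAX on the opposite strand, with 14.8% as many counts as MAX. The ratio of MYC to MAX was 0.862, 0.837 and 0.731 in NC against 0.606, 0.537 and 0.597 with the siRNA label, so the transcript of the partner exceeded that of MYC in each library.

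MXD1, MXD3, MXD4, MNT and MGA, the MAX-dependent repressors among the 10 genes, each had a positive log2 fold change with all 6 libraries. Those of MXD3 and MNT turned to -0.022 and -0.045 without NC library 3. The repressors did not all share this direction, as MXI1, an MXD repressor outside the 10 genes, had -0.44, and -0.33 without NC library 3. MXD1 (ENSG00000059728, chromosome 2 from 69897688 to 69942945, plus strand), a repressor that is typically raised as cells leave the cycle and differentiate, had 2.27, 1.76 and 1.30 FPKM in the NC libraries. It had 3.10, 2.66 and 2.66 FPKM in the libraries labelled GRIK1 siRNA, all above the NC libraries. The log2 fold change was 0.59 (standard error 0.19, 95% interval from 0.15 to 1.02), which is 1.503-fold, and its adjusted p was 0.118 in edgeR. Without NC library 3, MXD1 rose by 0.45 (standard error 0.13, adjusted p = 0.0116 from edgeR). Over the 12 alternatives the adjusted p ranged from 0.00376 to 0.325. SNRNP27 overlaps the start of MXD1 on the same strand and had 2508 counts over the 6 libraries, 232% of those of MXD1. For SNRNP27 the edgeR fit without a filter gave a log2 fold change of -0.69 (adjusted p = 0.0419), opposite to MXD1. The strand setting of the counting is not given, so how reads of the shared stretch were assigned is not known.

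MGA (ENSG00000174197, chromosome 15 from 41621134 to 41773081, plus strand) had 2.53, 2.58 and 1.99 FPKM in the NC libraries and 3.20, 3.26 and 3.32 FPKM in the libraries labelled GRIK1 siRNA. Every library labelled GRIK1 siRNA was above every NC library. The log2 fold change was 0.38 (standard error 0.11, 95% interval from 0.12 to 0.65, adjusted p = 0.105 from edgeR), which is 1.30-fold. Without NC library 3, MGA rose by 0.33 (standard error 0.07, adjusted p = 0.000967 from edgeR), and the adjusted p ranged from 0.000772 to 0.356 over the 12 alternatives. No gene that overlaps MGA had more than 1 count in all 6 libraries together.

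MXD4 (ENSG00000123933, chromosome 4 from 2247432 to 2262109, minus strand), a repressor of the same family with the E-box shown above, had 4.17, 4.30 and 3.81 FPKM in NC and 4.93, 5.64 and 4.47 FPKM in the other group. On normalized counts its groups did not overlap, which also held for MYC, MXD1 and MGA and for 38.5% of all tested genes. Its log2 fold change was 0.21 (95% interval from -0.09 to 0.51, adjusted p = 0.344 from edgeR), with 0.12 when library 2 labelled GRIK1 siRNA was left out and 0.22 without NC library 3. It was not called under any of the 12 alternatives, whose adjusted p-values ranged from 0.110 to 0.712.

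MXD3 and MNT depended on NC library 3. MXD3 (ENSG00000213347, chromosome 5 from 177301461 to 177312757, minus strand), the MXD member that is most active in proliferating cells, had 3.93 and 4.02 FPKM in NC libraries 1 and 2 but 1.28 FPKM in NC library 3, against 4.09, 4.08 and 3.80 FPKM in the libraries labelled GRIK1 siRNA. Its log2 fold change of 0.32 with all libraries became -0.02 without NC library 3, with a 95% interval from -0.24 to 0.20. RAB24 on the same strand and PRELID1 on the opposite strand overlap MXD3, and PRELID1 had 339% as many counts, so reads at this locus may have been shared. MNT (ENSG00000070444, chromosome 17 from 2384073 to 2401104, minus strand), the most widely expressed MAX-dependent repressor, had 6.71 and 5.23 FPKM in NC libraries 1 and 2, 2.35 FPKM in NC library 3, and 4.75, 6.50 and 6.39 FPKM in the others. Its log2 fold change went from 0.25 to -0.05, with a 95% interval from -0.29 to 0.20 without NC library 3. The library's difference from the mean of NC libraries 1 and 2 was -1.44 for MXD3 and -1.16 for MNT on the log2 scale. Their transcript GC contents are 61.3% and 61.4%, within the range of those 3882 genes, which starts at 55.2%. MXD4, the other tested member in this range, at 57.6%, had a difference of 0.03. The part of GC content in these values was not tested.

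MLX (ENSG00000108788, chromosome 17 from 42567072 to 42573239, plus strand), the partner of the glucose-responsive factors, had 10.4, 10.04 and 11.9 FPKM in the NC libraries and 10.3, 10.8 and 9.68 FPKM in the others. The groups overlapped. The log2 fold change was -0.17 (95% interval from -0.51 to 0.18, adjusted p = 0.499 from edgeR) and -0.02 without NC library 3, with an interval from -0.18 to 0.15. PSMC3IP overlaps MLX on the opposite strand, with 8.87% as many counts.

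**Figure D2:**
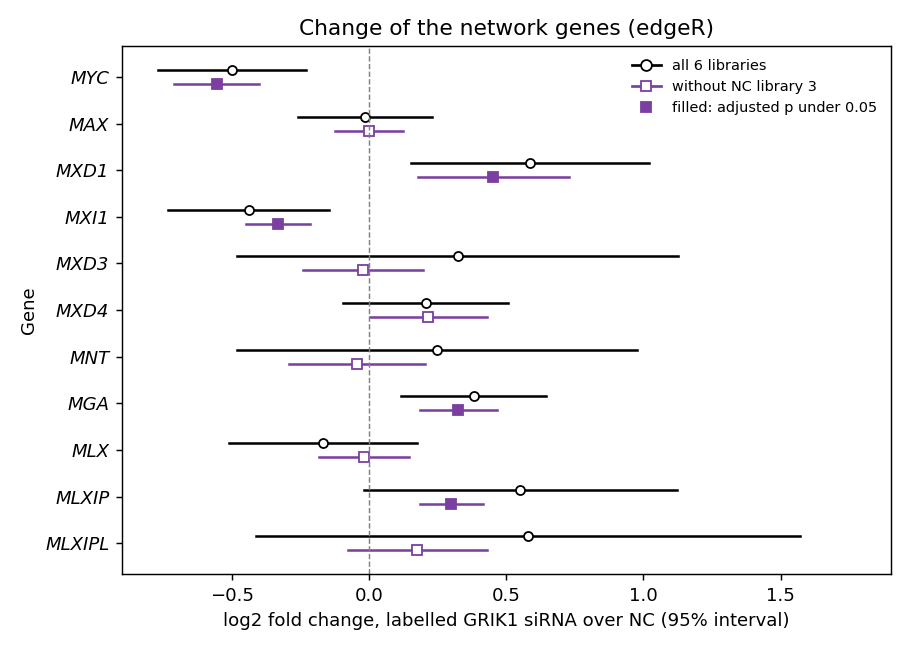
Log2 fold change of each tested network gene and of MXI1, MLXIP and MLXIPL between the libraries labelled GRIK1 siRNA and NC (horizontal axis), with 95% intervals from edgeR, for all 6 libraries (black) and without NC library 3 (violet), filled where the adjusted p was under 0.05. MYC lies at -0.50 and -0.55 in these fits and MAX near 0, while MXD3 and MNT move to -0.022 and -0.045 when NC library 3 is left out.

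The other genes of the extended network were MXI1, a further MXD repressor, and MLXIP and MLXIPL. MXI1 (chromosome 10 from 110207605 to 110287365) was at a higher level than any of the 10 members in NC, at 18.3, 18.1 and 19.7 FPKM, and had 14.5, 14.7 and 15.1 FPKM in the libraries labelled GRIK1 siRNA. For MXI1 the log2 fold change was -0.44 with a standard error of 0.13 (adjusted p = 0.0986 from edgeR), opposite in sign to that of MXD1. Without NC library 3, MXI1 fell by 0.33 (adjusted p = 0.000147 from edgeR, with a range from 0.000147 to 0.329 over the 12 alternatives). MLXIP (chromosome 12 from 122078756 to 122147344) had 7.17, 6.82 and 3.19 FPKM in NC and 9.02, 8.53 and 8.74 FPKM in the other group, which gave a log2 fold change of 0.55 with a standard error of 0.24 (adjusted p = 0.208 from edgeR). It rose by 0.30 without NC library 3 (adjusted p = 0.000367 from edgeR, with a range from 0.000367 to 0.424). MLXIPL had 4.10, 3.64 and 0.934 FPKM against 5.11, 4.02 and 4.23 FPKM, and its groups overlapped. The log2 fold change of MLXIPL was 0.58 with all libraries, 0.18 without NC library 3 and 0.90 without NC library 1 (adjusted p = 0.414 from edgeR with all libraries, from 0.242 to 0.652 over the 12 alternatives). None of the 3 was called with all libraries in edgeR. An unadjusted p under 0.05 was found for 1, against 25.1% of all genes. DESeq2 called 1 and limma's voom with quality weights called 2, the latter against 39.9% of all genes.

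The balance of MYC to its competitors was followed as a ratio of FPKM values within each library, as a description without a test. MYC to MGA was 5.02, 4.72 and 4.87 in NC against 2.69, 2.55 and 2.70 with the siRNA label, and NC library 3 lay between the other NC libraries. MYC to MXD1 was 5.60, 6.94 and 7.43 against 2.78, 3.12 and 3.37. Against the summed FPKM of MXD1, MXD3, MXD4, MNT and MXI1, MYC stood at 0.359, 0.364 and 0.340 in NC and at 0.275, 0.247 and 0.277 in the other group. For each of these ratios every library labelled GRIK1 siRNA was below every NC library. With MGA and MXD1 this follows from the levels above and adds no evidence, as MYC was lower and both were higher in each such library. The summed FPKM overlapped between the groups, at 35.4, 33.4 and 28.5 in NC against 31.3, 33.5 and 32.4. The ratio to this sum thus mainly restates the lower MYC level given above and adds no evidence either. MLX to the sum of MLXIP and MLXIPL was 0.919, 0.959 and 2.88 against 0.730, 0.858 and 0.746, and here NC library 3 was far above all others.

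**Figure D3:**
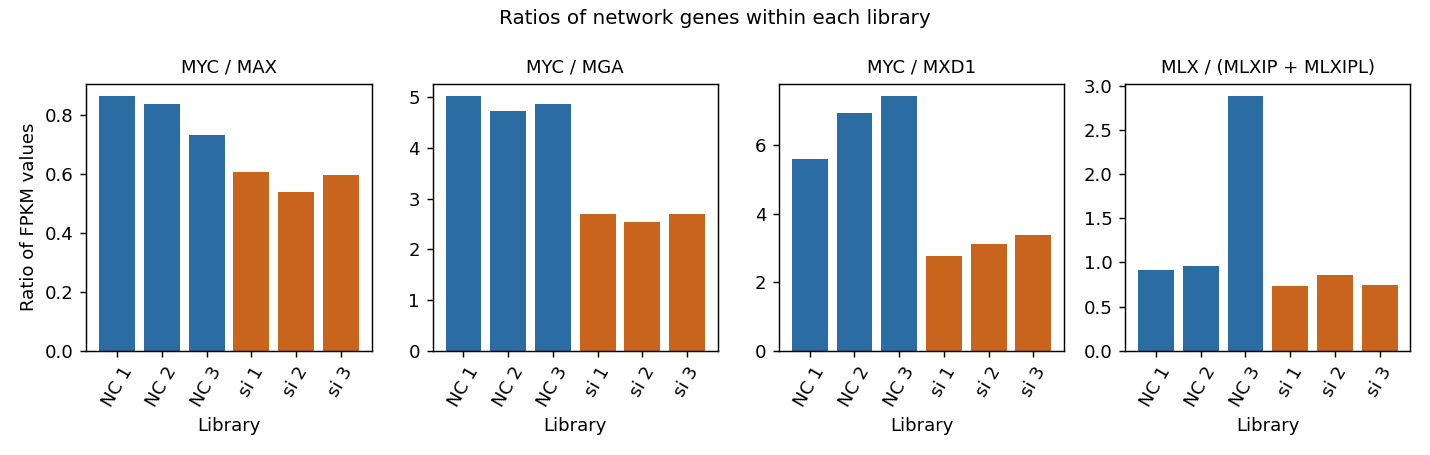
Ratio of FPKM values within each of the 6 libraries (vertical axes, from 0) for MYC to MAX, MYC to MGA, MYC to MXD1 and MLX to the sum of MLXIP and MLXIPL, with NC in blue and the libraries labelled GRIK1 siRNA (si) in orange. MYC to MGA lies between 4.72 and 5.02 in NC and between 2.55 and 2.70 in the other group, and the last ratio is 2.88 in NC library 3.

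The genes whose log2 CPM over the 6 libraries followed that of MYC most closely, among the 6910 tested genes that averaged 5 FPKM or more, were SKIL with a Pearson correlation of 0.992, IFT80 with 0.992 and RGL2 with 0.992. Their log2 fold changes were -0.47, -0.42 and -0.55. A correlation over 0.9 with MYC was found for 281 genes, so these 3 are not set apart. For MAX the closest were SSB with 0.938, NUP42 with 0.918 and NCS1 with 0.908, and only these 3 genes were over 0.9. The points are 6 libraries in 2 groups, and they share depth and composition.

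Lists of genes around the network were described by their counts, and the background was 1.61% called higher and 1.48% called lower. In the fit without NC library 3 it was 16.9% higher and 18.3% lower, against which the counts of that fit are to be read. An unadjusted p under 0.05 was found for 25.1% of all tested genes. DESeq2 called 5.20% higher and 4.84% lower, and limma's voom with quality weights called 39.9%. The list counts from these tests are to be read against these shares. Of 15 tested partners of MGA in PRC1.6, 0 were called higher and 1 lower. That was TFDP1, the dimer partner of the E2F factors, at 37.1, 38.3 and 36.6 FPKM in NC and 27.0, 26.2 and 27.8 FPKM in the other group, which gave a log2 fold change of -0.56 with a standard error of 0.11 (adjusted p = 0.0448 from edgeR). The list had a median log2 fold change of -0.20 (-0.13 without NC library 3, where 3 were called higher and 5 lower). In that fit TFDP1 was called with -0.51. With all libraries, 7 of the 15 had an unadjusted p under 0.05, DESeq2 called 3 and limma's voom with quality weights called 8. Other PRC1.6 members, chosen after their values were seen, had values of opposite sign that did not pass the test with all libraries, RNF2, a ubiquitin ligase, with -0.73, and EHMT1, a histone H3 lysine methyltransferase, with 0.80. Both were called in edgeR without NC library 3, RNF2 with -0.46 (adjusted p = 0.00134) and EHMT1 with 0.60 (adjusted p = 1.43e-05). Of 16 tested genes of the SIN3 co-repressor, which MXD and MNT recruit, 0 were called in edgeR, 3 had an unadjusted p under 0.05, DESeq2 called 0 and limma's voom with quality weights called 5. Their median was -0.17, and the extremes were ARID4A with 0.35 and SAP30 with -0.59. When NC library 3 was left out, 2 were called higher and 3 lower, ARID4A was called with 0.29, and SAP30 had -0.19 and was not called.

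Of 15 tested MYC co-activators, 0 were called in edgeR. An unadjusted p under 0.05 was found for 4, against 25.1% of all genes. DESeq2 called 3 and limma's voom with quality weights called 9, the latter against 39.9% of all genes. CDK9, the kinase of the elongation factor P-TEFb, had the lowest log2 fold change, -0.60, from 17.4, 18.3 and 12.8 to 12.2, 11.1 and 10.5 FPKM (adjusted p = 0.0618 from edgeR). The groups of CDK9 did not overlap, which on normalized counts held for 38.5% of all tested genes. Without NC library 3, 6 of the 15 were called higher (16.9% of all genes) and 2 lower (18.3% of all genes), CDK9 among the latter with -0.69. TRRAP, the scaffold of MYC-bound acetyltransferases, had 0.90, and 0.64 without NC library 3, where it was called. It was chosen after its value was seen.

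Of 17 tested genes of MYC protein turnover, 0 were called in edgeR. An unadjusted p under 0.05 was found for 6, against 25.1% of all genes. DESeq2 called 3 and limma's voom with quality weights called 6, the latter against 39.9% of all genes. HUWE1, a ubiquitin ligase with MYC among its substrates, had the highest log2 fold change, 0.95, from 15.5, 14.3 and 6.68 to 25.8, 24.0 and 23.6 FPKM (adjusted p = 0.0886 from edgeR), and STUB1, a chaperone-linked ligase, had the lowest, -0.70. With the other 5 libraries alone, 4 were called higher and 1 lower, HUWE1 was called with 0.69, and STUB1 had -0.33 and was not called. FBXW7, the ligase subunit that recognises phosphorylated MYC, had 0.56, and 0.43 without NC library 3, where it was called. It was chosen after its value was seen. Of 11 tested regulators of MYC transcription and mRNA, 0 were called in edgeR, 1 had an unadjusted p under 0.05, DESeq2 called 0 and limma's voom with quality weights called 5. The extremes were FUBP1, which binds DNA upstream of MYC, with 0.39, and CTNNB1, the beta-catenin of Wnt signalling, with -0.54. In the fit without NC library 3, 1 was called higher, FUBP1 with 0.20, and 4 lower, among them CTNNB1 with -0.24.

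PVT1, the long noncoding gene next to MYC, was the only tested one of 8 noncoding neighbours of the MYC genes in the table. It had 1.19, 1.07 and 0.612 FPKM in the NC libraries and 1.77, 1.99 and 1.97 FPKM in the libraries labelled GRIK1 siRNA, opposite in direction to MYC. For PVT1 it was a log2 fold change of 0.93 with a standard error of 0.20 (adjusted p = 0.0543 from edgeR) with all libraries and 0.73 without NC library 3, where it was called. CASC11, which overlaps MYC on the opposite strand, had 6 counts over all libraries.

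Genes that MYC is known to induce did not share a direction. Of 48 tested, 0 were called higher and 2 lower in edgeR. These were E2F1, which drives entry into S phase, from 8.37, 8.69 and 6.58 to 3.36, 2.42 and 3.43 FPKM (log2 fold change -1.44, adjusted p = 0.0236 from edgeR), and CDC25A, a phosphatase that activates cyclin-dependent kinases, from 1.56, 1.39 and 1.67 to 0.838, 0.803 and 0.767 FPKM (-1.04, adjusted p = 0.0432). The fold change was positive for 21 and negative for 27 of the 48, with a median of -0.12. Of the 48, 15 had an unadjusted p under 0.05, against 25.1% of all genes. DESeq2 called 6, against 5.20% of all genes called higher and 4.84% lower. With limma's voom and quality weights 26 were called, against 39.9% of all genes. Without NC library 3, 12 were called higher and 15 lower, among the latter E2F1 with -1.50 and CDC25A with -0.90, and the median was -0.00417. Examples from both sides, chosen after their values were seen, were the glucose transporter SLC2A1 with 0.98, the mitochondrial serine enzyme SHMT2 with -0.63 and CDK4 with -0.90. These were 0.75, -0.50 and -0.39 without NC library 3, and each was called. CACGTG was in the promoter window of 18 of the 42 listed genes that had one (42.9%), against 8.77% of all genes with a window, tested or not. Over all tested genes with a window, the median log2 fold change was -0.08 for 1249 genes with CACGTG and -0.06 for 8698 without it, and -0.05 and -0.0069 without NC library 3.

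Of 6 tested genes that MYC is known to repress, 0 were called in edgeR. An unadjusted p under 0.05 was found for 3, against 25.1% of all genes. DESeq2 called 3, against 5.20% of all genes called higher and 4.84% lower. With limma's voom and quality weights 4 were called, against 39.9% of all genes. NDRG1, a stress-responsive differentiation gene, had the highest log2 fold change, 0.56, from 37.6, 37.2 and 44.0 to 63.6, 61.1 and 61.9 FPKM (adjusted p = 0.0953 from edgeR). Its groups did not overlap, which on normalized counts held for 38.5% of all tested genes. CDKN1B, the CDK inhibitor p27, had the lowest, -0.08, and -0.0005 without NC library 3. CDKN1A, the CDK inhibitor p21, had 0.40 and the stress gene GADD45A had 0.45, both chosen after their values were seen. NDRG1 had 0.71, CDKN1A 0.41 and GADD45A 0.39 without NC library 3, and these were the ones called higher. The list's median was 0.24, and 0.23 without NC library 3, where 3 were called higher and 1, CLU, was called lower with -0.29.

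Of 7 tested targets of MondoA, ChREBP and MLX, 2 were called higher and 0 lower. These were ACACA, the acetyl-CoA carboxylase that starts fatty acid synthesis, from 2.15, 1.64 and 1.48 to 4.27, 4.39 and 4.12 FPKM (log2 fold change 1.20, adjusted p = 0.0205 from edgeR), and SCD, the stearoyl-CoA desaturase, from 63.4, 61.5 and 45.3 to 91.9, 95.6 and 92.6 FPKM (0.64, adjusted p = 0.0497). Both are also targets of other lipogenic factors. TXNIP and ARRDC4, the genes most specific to MondoA, were not called, with 0.07 and 0.24, nor without NC library 3, with 0.26 and 0.27. The median of the list was 0.45, and 0.27 without NC library 3, where 4 were called higher and 0 lower. ACACA with 1.14 and SCD with 0.56 were among these 4. With all libraries, 4 of the 7 had an unadjusted p under 0.05, against 25.1% of all genes. DESeq2 called 3, and limma's voom with quality weights called 4, the latter against 39.9% of all genes.

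**Figure D4:**
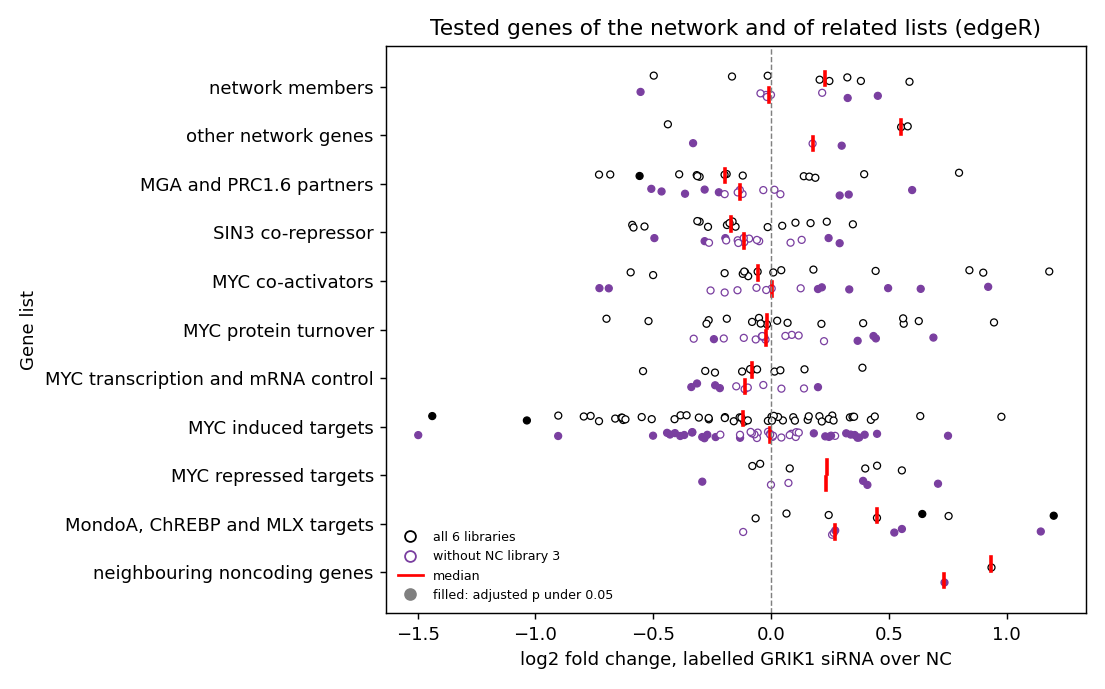
Log2 fold change between the libraries labelled GRIK1 siRNA and NC (horizontal axis) of each tested gene of the network and of the related lists (rows), with all 6 libraries in black and without NC library 3 in violet, filled at an adjusted p under 0.05 and with the list median in red. With all libraries the MYC induced targets spread on both sides of 0, from -1.44 to 0.98, and the black points of the 8 network members are all open.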

How the data were processed

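Per the labels, the submitters' processing notes name cutadapt 1.9.1, HISAT2, HTSeq and GRCh38. Strand setting and annotation release are not given in the sources used here, so reads of overlapping genes cannot be told apart. The authors deposited raw counts per gene and FPKM values for each library. The FPKM values (100%) equal the count over exonic size and total count within 0.005. Of 61806 genes, 41657 have the same start and end in GENCODE 29.

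The 15870 genes that averaged 0.5 FPKM or more were tested on counts with edgeR 4.0.16 in R 4.3.3, TMM scaling and no covariate. DESeq2 1.42.0, limma 3.58.1 (voom with quality weights), other scaling and filters, a block, and leaving out each library were alternatives. Log2 CPM used a prior count of 2. GC content is that of the longest GENCODE 29 transcript. The test was run on simulated counts with the same dispersion for all genes and no library that stood apart. This cannot show how it behaves with NC library 3. Symbols were matched to the table, older ones through RefSeq. Genes were named by rule: the 10 members, GRIK1, MXI1, MLXIP and MLXIPL, called genes of each list or else its extremes, and the 3 genes most like MYC and MAX, with exceptions marked in the text. Members and lists were chosen with earlier results of these data known. Limits of 3 counts cover counting error only. Some genes of the lists are not reported here.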

Additional observations from a re-analysis of the deposited data

How the results depend on the processing

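The number of called members was 0 of 8 with edgeR on all libraries, 2 with DESeq2, 3 with limma's voom with quality weights, and between 0 and 3 when 1 library was left out, with the 3 found without NC library 3. It was 0 with median-of-ratios scaling, without a filter and with filterByExpr. Over the table, 490 genes were called, against 1594 with DESeq2, 6327 with voom and quality weights, 1403 without a filter, and between 0 and 5591 when 1 library was left out. Of the 136 tested list genes other than the members, 5 were called, against 23, 69, 21 and between 0 and 68 in the same order. Among the fits with 1 library left out, these counts were highest without NC library 3, and leaving out any of the other 5 gave 0, with between 2238 and 4434 genes of the table at an unadjusted p under 0.05. Quality weighting gave NC library 3 a weight of 0.0498 and the others 1.02 to 2.60. With the replicate number as a block, 0 members, 0 list genes and 0 genes of the table were called in edgeR, while 3324 had an unadjusted p under 0.05. Deviations of libraries with the same number correlated at -0.07, 0.04 and -0.04, so the numbers are not shown to pair the libraries.

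The sign turned for MAX, whose log2 fold change was 0.012 with voom and quality weights and from -0.039 to 0.023 with 1 library left out, positive without library 1 labelled GRIK1 siRNA. It turned for MXD3, at -0.022 with voom and from -0.022 to 0.55 with 1 library left out, and for MNT, from -0.045 to 0.55, both negative without NC library 3. The causes were not tested. Over 152 refits of the members, MXI1, MLXIP, MLXIPL and GRIK1, 134 kept direction and side of the threshold, 13 newly passed it and 5 turned sign. MYCN had 0 counts, so no difference was estimated for it.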
